A study of Homo sapiens with 6 samples.

Results

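Nuclear receptors are transcription factors whose activity is set by small fat-soluble ligands such as steroids, thyroid hormone, retinoids, vitamin D, fatty acids and oxysterols, or, for orphan members, by no known ligand. This account concerns 35 receptors of that superfamily other than the NR4A, NR5A, NR1D and COUP receptors and NR0B1. Members were the probe sets to which the platform annotation gave 1 single symbol on that list. It gave 78 of 22215 analysed probe sets, which stand for 31 of the 35 genes. NR1H2, NR1H4, NR1I2 and HNF4A had none and were not analysed here. RNA came from NCI-H295A, an established human adrenocortical carcinoma line that makes steroids, grown with 2% fetal calf serum, insulin and selenium. There were 3 arrays of untreated control cells and 3 of cells kept for 18 h with 1 mM 8-Br-cAMP, a cell-permeable analogue of cAMP. The sample descriptions call the agent cAMP, and the treatment protocol names it 8-Br-cAMP. Every array thus shares 1 cell line and 1 medium, and no label states that the replicates are separate cultures. The p-values therefore cover the spread between arrays alone, part of which may be technical.

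Steroid receptors wait in chaperone complexes until a ligand binds, whereas receptors for thyroid hormone, retinoids, vitamin D and lipids sit in the nucleus, mostly as partners of a retinoid X receptor, and hold corepressors until their ligand brings coactivators. In the adrenal cortex ACTH acts through cAMP, and the cells make ligands for several of these receptors, above all cortisol for the glucocorticoid receptor, aldosterone for the mineralocorticoid receptor and oxysterols for the liver X receptors. The comparison of treated with control cells asks which receptor transcripts differ after prolonged cAMP signalling.

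In the fit that pairs arrays of the same number, 2 of 4 probe sets of the vitamin D receptor gene VDR rose, 2.74-fold and 2.47-fold, and 1 of 4 probe sets of the glucocorticoid receptor gene NR3C1 fell by 1.29 on the log2 scale. The other 2 VDR probe sets did not share that rise. Without the pairing limma called none of the member probe sets on all 6 arrays. On arrays 2 and 3 alone, also without the pairing, NR2F6, RARG, ESRRG, NR2C1 and a further NR3C1 probe set were also called lower. A RORA probe set was called higher. That fit called 27.3% of the tested member probe sets, beside 30.8% of all, so the number of calls is no result about the receptors. Of these, the RARG, ESRRG, NR2C1 and further NR3C1 calls were lost with a common median, and the other NR2C1 probe sets did not share its fall. Receptors for thyroid hormone, oestrogen and PPAR ligands and the retinoid X receptors had no probe set past the threshold in any of these 3 fits to the values as deposited.

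Each value is the deposited array signal, or its log2 where stated. A probe set was tested if its mean log2 signal lay above 5.51, the 40th percentile of all probe sets, which is a signal of 45.5. This filter kept 33 member probe sets of 19 genes, among 13329 in all, and left 45 member probe sets untested. Tests are two-sided limma fits with Benjamini-Hochberg adjustment over all kept probe sets and a threshold of 0.05. The unpaired fit has 2 group means, and the paired fit adds the sample number as a replicate block, a pairing that no label states. The fit on arrays 2 and 3 leaves out control 1 and 8-Br-cAMP 1 and has no block. The last is given because these 2 arrays stood apart. The ratio of 3' to 5' actin signal, which grows as RNA degrades, reached 5.72 for control 1 and 38.8 for 8-Br-cAMP 1, while the remaining 4 arrays had 1.93 to 2.41. Arrays 2 and 3 correlated at 0.961 in controls and 0.980 after treatment, so p-values from the fit on arrays 2 and 3 may measure technical spread. Among kept member probe sets, array 1 was the one farthest from the others for 14 of 33 in controls and for 23 of 33 after 8-Br-cAMP, where over all kept probe sets this held for 60.9% and 77.8%. The part of RNA integrity in any difference below was not tested.

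The label of the cells was checked against markers. All 10 adrenocortical marker genes with a probe set, NR5A1, STAR, CYP11A1 and CYP17A1 among them, lay above the filter level, as did 1 of 9 chromaffin, 5 of 9 fibroblast, 2 of 7 endothelial and 3 of 8 leukocyte marker genes. Of all 22215 probe sets 13329 lay above that level, so a marker above it does not show that its cell type is present. No marker was listed at 0. The summed signal of the fibroblast markers was 1569 to 2578 in controls and 845.8 to 1039 after 8-Br-cAMP, and that of the adrenocortical markers 8396 to 28616 and 28310 to 60448. The summed endothelial signal was 191.3 to 240 in controls and 307.8 to 454.8 after treatment, the leukocyte signal 227.1 to 231.7 and 161.2 to 357.4, and the chromaffin signal 216.5 to 416.3 and 222.3 to 329.9. The part of these marker levels in the receptor differences was not tested, and with RNA from whole plates fewer cells of a type and less RNA per cell cannot be told apart.

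The unpaired fit called 0 of 33 member probe sets, as it did of all 13329 (0%), and the smallest adjusted p of a member was 0.225. At an unadjusted p under 0.05 there were 6 members, 2 higher and 4 lower, with 11.1% of all kept probe sets under it, and the unmoderated test called 0. The paired fit called 3 of 33, 2 higher and 1 lower, beside 3.21% of all kept probe sets. The higher and lower calls were 1.55% and 1.66% of all. At an unadjusted p under 0.05 the paired fit had 11 members, beside 21.3% of all, and 4 that were also at least 2-fold, beside 9.02%. The fit on arrays 2 and 3 called 9, 3 higher and 6 lower, a share of 27.3% beside 30.8% of all (12.1% higher, 18.7% lower), and 13 had an unadjusted p under 0.05, beside 42.7%. Those 9 calls became 4 higher and 4 lower after quantile normalization, and 5 higher and 2 lower with a common median. Of all 13329 kept probe sets, 1739 were then called higher and 1951 lower, and 2721 and 903 with a common median. The share of 27.3% as deposited is near the background and is no result about the receptors as a group. The median log2 difference of the 33 was -0.37, where that of all kept probe sets was -0.13. Lower means were found for 25 of the 33 probe sets as deposited, and for 20 after quantile normalization and 20 with a common median, with 61%, 52.7% and 41.8% of all kept probe sets lower in the same 3 scalings. Their medians were then -0.17 and -0.14, beside -0.03 and 0.09 for all kept probe sets.

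Probe sets of 1 gene mostly pointed the same way. Of the 19 genes, 10 had more than 1 kept probe set. As deposited, all kept probe sets of 15 genes were lower on average and those of 4 genes, VDR, PPARD, RORA and NR6A1, were higher. After quantile normalization the probe sets of THRA, ESRRA, NR2C1 and ESR1 no longer shared a sign, and RXRA lay on the higher side. The groups did not overlap for 9 member probe sets that were lower and 2 that were higher after 8-Br-cAMP, beside 12.5% and 6.02% of all kept probe sets. The 9 were 201865_x_at and 216321_s_at of NR3C1, 204791_at of NR2C1, 1 each of ESR1, ESRRA and ESRRG, and those of RARG, RXRB and NR2C2. Signs were the same in all 3 pairs for 14 lower and 6 higher probe sets, beside 28.9% and 15.3% of all, and in pairs 2 and 3 for 22 lower and 7 higher, beside 50.2% and 27.8%. Across the 33 member probe sets, which share arrays and are not independent, the log2 differences of pairs 2 and 3 correlated at 0.675, and those of pair 1 with them at 0.418 and 0.663. Over all kept probe sets the same correlations were 0.749, 0.215 and 0.287.

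**Figure D1:**
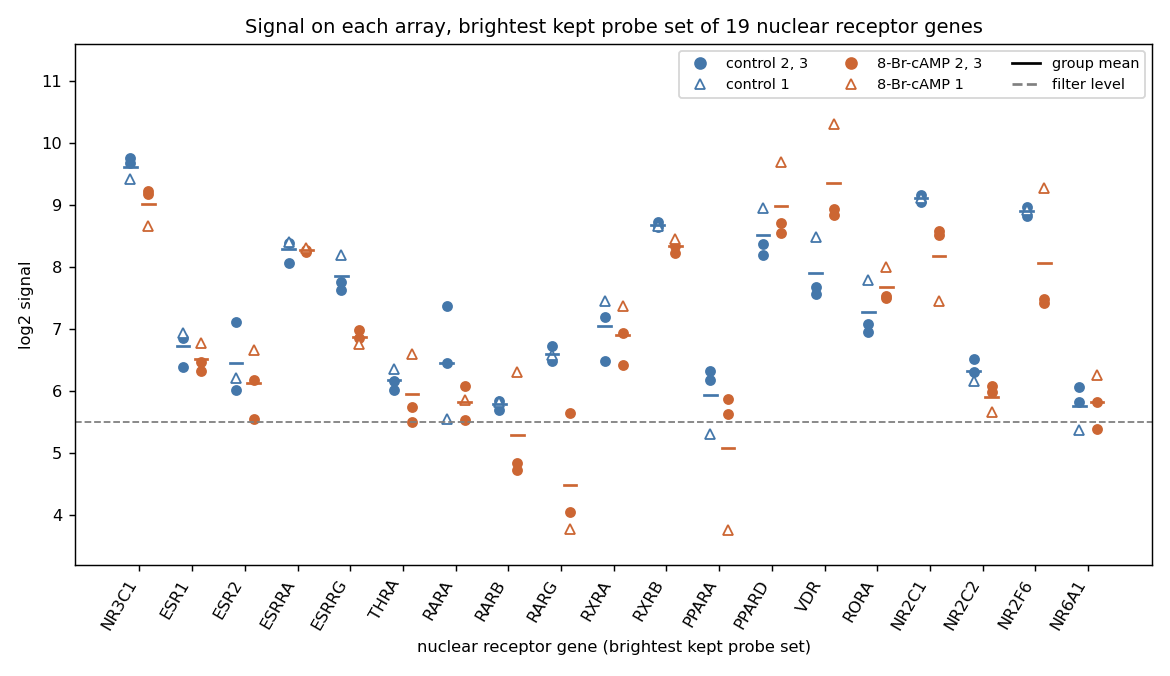
Log2 signal on each array for the kept probe set with the highest mean of each of 19 nuclear receptor genes, in role order; circles are arrays 2 and 3, open triangles array 1, short bars group means of 3 arrays, and the dashed line the filter level of 5.51. Both groups are separate for VDR, and for NR2F6 the treated array 1 lies above the controls while treated arrays 2 and 3 lie below them.

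**Figure D2:**
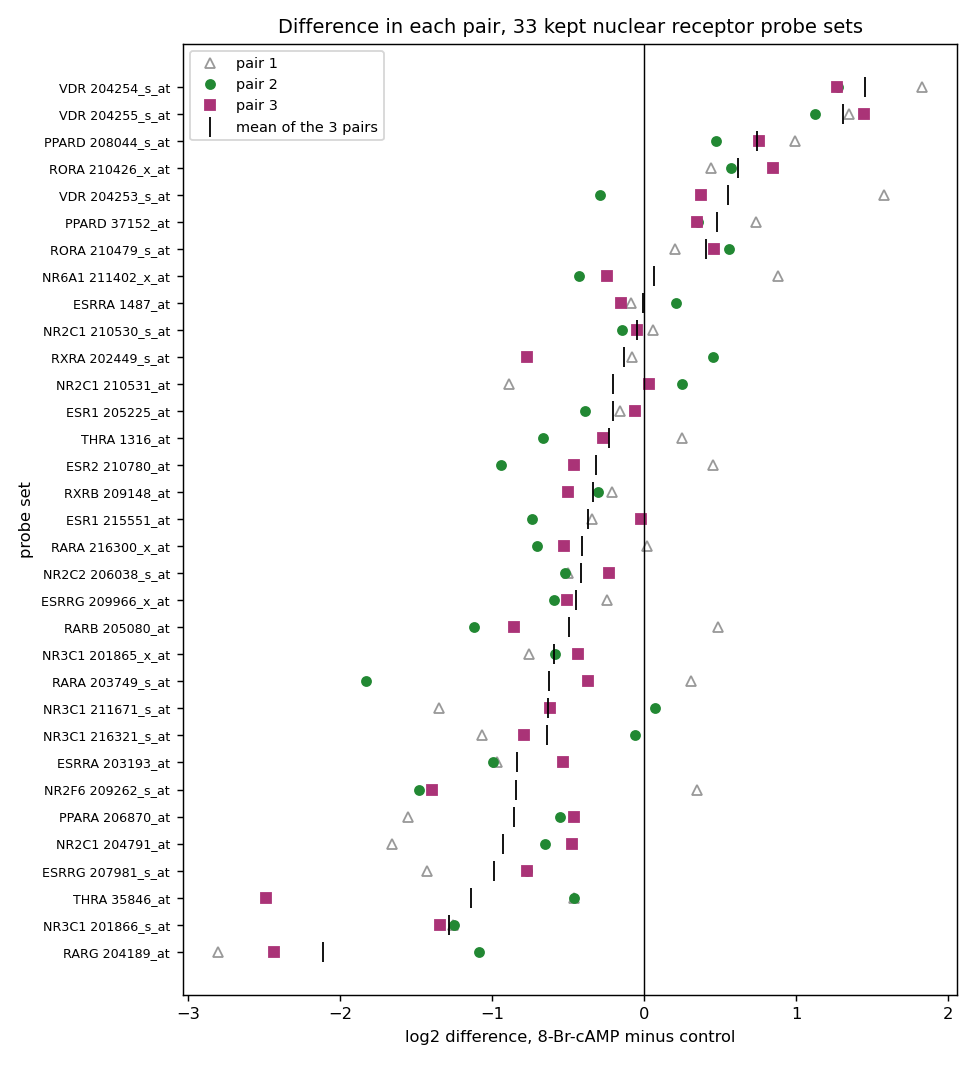
Log2 difference, 8-Br-cAMP minus control, in each of the 3 same-numbered pairs for the 33 kept nuclear receptor probe sets, ordered by their mean (vertical tick). 14 probe sets were lower and 6 higher in all 3 pairs, and 13 changed sign between pairs. Of all kept probe sets 28.9% were lower and 15.3% higher in all 3 pairs.

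NR3C1, which encodes the glucocorticoid receptor, the cell's sensor for cortisol, had 4 probe sets, all kept. Probe set 201866_s_at read 95.1, 285.6 and 247.5 on controls 1 to 3 and 39.8, 119.8 and 97.4 on 8-Br-cAMP 1 to 3. Each treated array was below its own-numbered control by a similar factor, but control 1 lay below both treated arrays 2 and 3, so the groups overlap. The log2 signal went from 7.56 ± 0.86 (SD, n = 3) to 6.28 ± 0.84, a difference of -1.29 with a paired SE of 0.24 (95% interval -1.87 to -0.70, limma adjusted p = 0.0474), while the unpaired adjusted p was 0.470. Differences in the 3 pairs were -1.26, -1.25 and -1.35. The paired call was lost after quantile normalization, with a common median, without the filter and without the intensity trend, with adjusted p up to 0.0946, and when pair 2 or pair 3 was left out (0.169 and 0.303). In the fit on arrays 2 and 3 the difference was -1.30 (adjusted p = 0.00202). It stayed below 0.05 there after quantile normalization (adjusted p = 0.00490) and with a common median (0.00512).

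The other NR3C1 probe sets had smaller differences. Probe set 201865_x_at read 684.4, 869.2 and 817.5 in controls and 404, 579 and 603 after treatment, with no overlap. Its log2 difference was -0.60 (paired adjusted p = 0.151). When the number 1 arrays were left out, it was -0.51 and passed (adjusted p = 0.0109), also after quantile normalization (0.0117), but with a common median it was -0.17 and did not (0.510). Probe set 216321_s_at read 340.3, 303.2 and 312.1 against 162.6, 291 and 180.5, a log2 difference of -0.64 (paired adjusted p = 0.229), with treated array 2 close to the controls. Probe set 211671_s_at read 415.9, 488.6 and 708.7 against 163.1, 513.8 and 461.7, a log2 difference of -0.63 (paired adjusted p = 0.280) with a higher value in pair 2. All 4 probe sets were thus lower on average as deposited. The call rested on 1 of them in the paired fit, and in the fit on arrays 2 and 3 on 2, or on 201866_s_at alone with a common median, where 211671_s_at turned to 0.07.

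VDR, the receptor for the hormonal form of vitamin D and a partner of the retinoid X receptors, had 4 probe sets, of which 3 were kept. Probe set 204254_s_at read 358.1, 189.3 and 203.9 on controls 1 to 3 and 1272.4, 457.1 and 490.1 after 8-Br-cAMP. All treated arrays were above all controls, and the number 1 array was the highest of each group. The log2 signal went from 7.91 ± 0.50 (SD, n = 3) to 9.36 ± 0.83, a difference of 1.46 with a paired SE of 0.22 (95% interval 0.93 to 1.98, limma adjusted p = 0.0270), and the unpaired adjusted p was 0.309. Pairs 1 to 3 gave 1.83, 1.27 and 1.27. On arrays 2 and 3 alone the difference was 1.27, or 2.41-fold (adjusted p = 0.000452).

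Probe set 204255_s_at of VDR read 287.5, 177.7 and 128.3 against 730.7, 387.1 and 349.7, again without overlap. Its log2 signal went from 7.55 ± 0.59 (SD, n = 3) to 8.85 ± 0.58. The difference of 1.31 had a paired SE of 0.21 (95% interval 0.81 to 1.80, limma adjusted p = 0.0307), and the unpaired adjusted p was 0.307. Both VDR calls held in 7 of 8 other choices of scaling, filter, offset or variance model combined with the block and were lost without the intensity trend (adjusted p = 0.0660 and 0.0682). With 1 pair left out, 204254_s_at kept its call in all 3 fits, with log2 differences from 1.27 to 1.55. The call of 204255_s_at held without pair 1 but was lost without pair 2 and without pair 3 (adjusted p up to 0.156). Neither VDR probe set was called by the unpaired fit in any of the alternatives run with the number 1 arrays included.

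Other VDR probe sets did not show the same rise. Probe set 204253_s_at read 97.3, 143.5 and 95.5 against 290.8, 117 and 123.5, so its mean log2 difference of 0.55 (paired adjusted p = 0.457) came mainly from the number 1 arrays, and it was 0.04 (adjusted p = 0.921) without them. Probe set 213692_s_at, below the filter and untested, read 53.2, 71.2 and 31.7 against 90.9, 17.4 and 7. It was higher in pair 1 and lower in pairs 2 and 3.

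**Figure D3:**
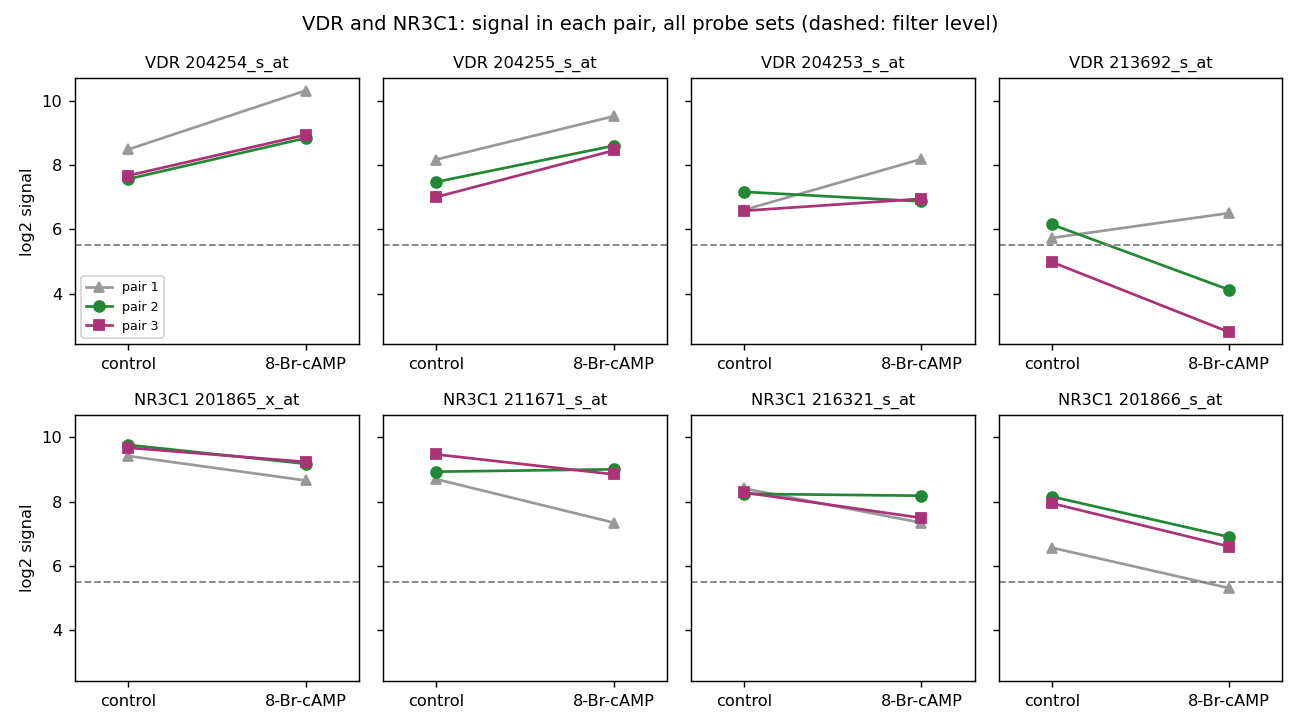
Log2 signal of all 4 VDR probe sets (top) and all 4 NR3C1 probe sets (bottom) in control and 8-Br-cAMP cells, with a line for each same-numbered pair and the filter level of 5.51 dashed. VDR 204254_s_at and 204255_s_at rise in all 3 pairs, by 1.12 to 1.83 on the log2 scale, and NR3C1 201866_s_at falls in all 3 along nearly parallel lines.

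Sequences before the start sites are shown because the treatment acts through cAMP, whose transcription factors CREB and CREM bind a palindromic element, the cAMP response element, or one side of it. The 250 bases before each RefSeq start (GRCh38.p14) were searched on both strands for the palindrome, for its sides TGACG and CGTCA, both of which each palindrome holds, and for the receptors' own core motif AGGTCA or TGACCT. There were 79 such windows for 31 of the 35 members, several per gene, some of which overlap. VDR, NR2F6, NR0B2 and HNF4G were not analysed here. The sides were present in 13 of the 79 windows (16.5%), beside 21.2% of all 35116 windows, the palindrome in 2 (2.53%, beside 1.65%) and the receptor core motif in 13 (16.5%, beside 12.1%). Shown are the 2 NR3C1 windows of 7 with a side, each as 30 bases around it, and in full the single windows of NR2C1, RARG and NR6A1, the last being the member with a kept probe set whose window held the palindrome. Capitals mark the motifs, all read 5′ to 3′ on the gene's strand, the minus strand in each case.
NR3C1, chr5:143403779-143403808, motif 110 bases before the start: gcagttgccaagCGTCAccaacaggttgca
NR3C1, chr5:143434810-143434839, motif 15 bases before the start: gaaaaaaggaatctgCGTCAtatctaagtc
NR2C1, chr12:95073619-95073868: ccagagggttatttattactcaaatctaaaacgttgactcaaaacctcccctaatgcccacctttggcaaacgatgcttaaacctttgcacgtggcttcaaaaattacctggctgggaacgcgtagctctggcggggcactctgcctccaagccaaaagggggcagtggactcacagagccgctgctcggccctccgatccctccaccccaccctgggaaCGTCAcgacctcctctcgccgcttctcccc
RARG, chr12:53232210-53232459: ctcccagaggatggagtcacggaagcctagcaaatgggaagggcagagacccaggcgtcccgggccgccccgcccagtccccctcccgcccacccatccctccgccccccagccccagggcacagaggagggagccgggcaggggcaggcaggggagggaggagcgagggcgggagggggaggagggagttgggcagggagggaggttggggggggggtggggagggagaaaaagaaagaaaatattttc
NR6A1, chr9:124771312-124771561: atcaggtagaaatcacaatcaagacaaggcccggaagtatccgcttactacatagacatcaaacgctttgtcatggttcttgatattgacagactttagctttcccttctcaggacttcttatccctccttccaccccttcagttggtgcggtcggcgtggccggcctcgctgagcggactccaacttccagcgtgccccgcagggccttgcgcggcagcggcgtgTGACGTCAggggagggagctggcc
NR2C1 has CGTCA 30 bases before the start, NR6A1 its palindrome 24 bases before it, and the RARG window holds none of the motifs searched. Of these genes NR6A1 differed by 0.07 on the log2 scale in its kept probe set (95% interval -0.88 to 1.01 unpaired, limma adjusted p = 0.979). NR2E1, whose window also held the palindrome, had no kept probe set. The part of any motif in a difference was not tested. A match is a description of letters and not a site in use, and the windows that hold a side include NR3C1 and NR2C1, which were lower, and PPARD, which was higher on average.

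Among the other steroid receptors, the oestrogen receptor genes ESR1 and ESR2 had no call. ESR1 205225_at read 123, 115.9 and 83.8 in controls and 110, 88.5 and 80.3 after treatment, and the groups overlap (log2 difference -0.20, paired adjusted p = 0.709). ESR1 215551_at read 74, 86.1 and 67 against 58.3, 51.7 and 66, a log2 difference of -0.37 (paired adjusted p = 0.589). The remaining 7 of 9 ESR1 probe sets lay below the filter. ESR2 210780_at read 74.4, 138.6 and 64.8 against 101.9, 72.2 and 47.1 (log2 difference -0.32, paired 95% interval -1.21 to 0.58, limma adjusted p = 0.671), higher in pair 1 and lower in the other pairs. Its difference on arrays 2 and 3 alone was -0.70 (adjusted p = 0.245). The single probe sets of NR3C2, the mineralocorticoid receptor through which aldosterone acts, and of PGR, the progesterone receptor, lay below the filter on all arrays, at 4.7 to 25.5 and 1.8 to 19.2.

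The oestrogen-related receptors ESRRA and ESRRG, orphan receptors that drive mitochondrial and oxidative genes, were at or below control levels. ESRRG 207981_s_at read 292.2, 197.7 and 216.6 in controls and 108.7, 115.6 and 126.7 after 8-Br-cAMP. Every treated array lay below every control. The log2 difference was -0.99 (paired SE 0.25, 95% interval -1.59 to -0.39, limma adjusted p = 0.0886), and on arrays 2 and 3 alone it was -0.77 and passed (adjusted p = 0.0153), though not when quantile normalization or a common median was added. ESRRG 209966_x_at pointed the same way at -0.45 (paired adjusted p = 0.402). ESRRA 203193_at read 97.1, 103.8 and 66.3 against 49.5, 52 and 45.7 without overlap, a log2 difference of -0.84 (paired adjusted p = 0.223). ESRRA 1487_at read 338.6, 267.5 and 335.6 against 318.7, 308.9 and 302.2, a log2 difference of -0.01 (paired 95% interval -0.51 to 0.49), and its sign turned with the scaling. The ESRRA probe sets therefore disagree.

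Thyroid hormone receptor genes had low signals. THRA 1316_at read 82.1, 71.6 and 64.9 against 97.4, 45.2 and 53.8 (log2 difference -0.23, paired adjusted p = 0.756), with a sign that turned after quantile normalization. THRA 35846_at read 103.5, 45 and 69.6 against 75, 32.6 and 12.4, lower in all 3 pairs, with differences from -2.49 to -0.46 (log2 difference -1.14, paired adjusted p = 0.288). Of THRA's 4 probe sets 2 were below the filter, and the single THRB probe set was too, at 13 to 116.8.

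Retinoic acid receptors are the nuclear sensors of all-trans retinoic acid, and RARG had the largest estimated difference of any kept member probe set. RARG 204189_at read 95.8, 106.2 and 89.4 in controls and 13.7, 49.9 and 16.5 after 8-Br-cAMP. Every treated array was below every control, but 2 of the 3 treated signals lay under the filter level, so the size of the difference is imprecise. Its mean log2 signal over all arrays was 5.54, just above the filter level, while its treated mean lay below that level. The probe set was thus kept mainly through its controls, and its rank among the kept members is as imprecise as its size. The log2 signal went from 6.60 ± 0.13 (SD, n = 3) to 4.49 ± 1.01. The difference of -2.11 had a paired SE of 0.49 (95% interval -3.29 to -0.93, limma adjusted p = 0.0744), and in the fit on arrays 2 and 3 it was -1.76 (adjusted p = 0.0429), a call lost when quantile normalization or a common median was added. RARA 203749_s_at read 46.9, 165.1 and 87.2 against 58.1, 46.5 and 67.6 (log2 difference -0.63, paired adjusted p = 0.489), and RARA 216300_x_at differed by -0.41 (paired adjusted p = 0.561). RARB 205080_at read 56.6, 57.3 and 51.7 against 79.4, 26.4 and 28.5, higher in pair 1 and lower in pairs 2 and 3 (log2 difference -0.50, paired adjusted p = 0.606).

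The retinoid X receptors, obligate partners of many receptors of the family, did not pass in any fit. RXRB 209148_at read 406, 400.7 and 425.8 against 351.1, 323.8 and 300.4, with no overlap and a log2 difference of -0.34 (paired SE 0.20, 95% interval -0.82 to 0.14, limma adjusted p = 0.388). Its adjusted p was 0.0523 on arrays 2 and 3 alone. RXRA 202449_s_at read 175.4, 89.7 and 146.4 against 166.2, 122.7 and 85.6, and its log2 difference of -0.13 (paired 95% interval -0.87 to 0.61) turned sign with the scaling. RXRG lay below the filter at 3.6 to 82.9. The RXRA interval leaves room for a difference in either direction, so equal levels are not shown.

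Among the PPARs, receptors for fatty acids and their derivatives, PPARD was higher on average and PPARA lower, and neither passed as deposited. PPARD 37152_at read 497.4, 294.3 and 332.3 in controls and 829.6, 376 and 421.7 after treatment, higher in each pair by 0.34 to 0.74 on the log2 scale (log2 difference 0.48, paired SE 0.21, limma adjusted p = 0.247). PPARD 208044_s_at read 85.9, 53.6 and 55.4 against 170.6, 74.4 and 93.4, also higher in each pair (log2 difference 0.74, paired adjusted p = 0.227). In both the number 1 array was the highest of its group. On arrays 2 and 3 alone 37152_at differed by 0.35 (adjusted p = 0.101), by 0.45 after quantile normalization (0.0594) and by 0.69 with a common median, where it passed (0.0276). PPARA 206870_at read 39.6, 72.8 and 80.5 against 13.5, 49.5 and 58.5, lower in each pair (log2 difference -0.86, paired adjusted p = 0.327). PPARG, the adipocyte member, was listed at 2.1 to 6.9 on all arrays.

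RORA, a receptor that binds sterols and takes part in the circadian clock, was higher in every pair. RORA 210426_x_at read 177.8, 86.6 and 79.5 against 240.7, 128.4 and 143 (log2 difference 0.62, paired SE 0.24, limma adjusted p = 0.216), and RORA 210479_s_at read 222.5, 123.5 and 135.1 against 256, 181.5 and 185.3 (log2 difference 0.40, paired adjusted p = 0.355). Control 1 was higher than treated arrays 2 or 3, so the groups overlap in both. In the fit on arrays 2 and 3, probe set 210426_x_at passed (log2 difference 0.71, adjusted p = 0.0489) and 210479_s_at did not (0.51, adjusted p = 0.0707). With quantile normalization added both passed (adjusted p = 0.0140 and 0.0218), and with a common median as well (0.00821 and 0.0140).

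The orphan receptor NR2F6, a relative of the COUP receptors that mostly represses transcription, differed between the pairs. NR2F6 209262_s_at read 487.3, 502.9 and 452.4 in controls and 619.3, 179.9 and 171.5 after 8-Br-cAMP. Treated arrays 2 and 3 were far below the controls, and treated array 1 was above them. The differences in pairs 1 to 3 were 0.35, -1.48 and -1.40 on the log2 scale, with a mean of -0.85 (paired adjusted p = 0.264). When the number 1 arrays were left out, the difference was -1.44 (SE 0.14, adjusted p = 0.000280), the smallest adjusted p of any member in that fit, and it passed with 8-Br-cAMP 1 alone left out and no pairing (adjusted p = 0.0323). It also passed without the number 1 arrays after quantile normalization (adjusted p = 0.000704) and with a common median (0.00118). Its other 2 probe sets were below the filter, and of these 209261_s_at read 7.1, 72.6 and 67.9 against 13.2, 16.1 and 6.9, likewise higher in pair 1 and lower in pairs 2 and 3.

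NR2C1, an orphan receptor that binds repeats of AGGTCA and mainly represses, was lower in 1 of its 3 probe sets. NR2C1 204791_at read 552.4, 574.9 and 531.7 in controls and 174.8, 365.9 and 382.5 after treatment, with tight controls and no overlap. The log2 difference was -0.93 (paired SE 0.28, 95% interval -1.60 to -0.26, limma adjusted p = 0.130). On arrays 2 and 3 alone it was -0.56 and passed (adjusted p = 0.0114), also after quantile normalization (0.0251), and not with a common median. NR2C1 210530_s_at differed by -0.05 and NR2C1 210531_at by -0.20 (paired adjusted p = 0.939 and 0.763), and the probe sets of this gene disagree. On arrays 2 and 3 alone 210531_at was 0.14 higher after treatment (adjusted p = 0.656), and 210530_s_at turned to 0.17 after quantile normalization and 0.18 with a common median. Its close relative NR2C2 read 71.5, 91.2 and 79.4 against 50.5, 63.6 and 67.7, without overlap (log2 difference -0.42, paired adjusted p = 0.503). NR6A1, the germ cell nuclear factor, read 41.5, 56.5 and 67.1 against 76.3, 41.9 and 56.5 in 211402_x_at, and its groups overlap.

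**Figure D4:**
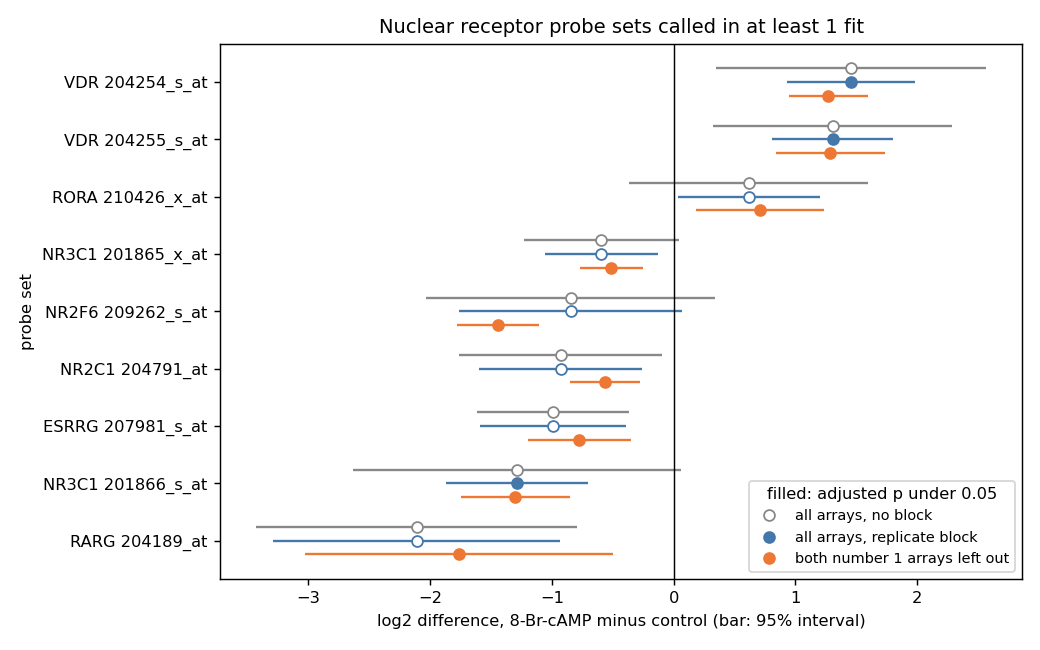
Log2 difference, 8-Br-cAMP minus control, with its 95% interval for the 9 nuclear receptor probe sets called in at least 1 of 3 limma fits; filled symbols have an adjusted p under 0.05. VDR and 1 NR3C1 probe set are filled in 2 fits, and the NR2F6 estimate moves from -0.85 to -1.44 when the number 1 arrays are left out.

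The filter left 12 of the 31 measured receptor genes without a tested probe set. These were NR3C2, PGR, THRB, RXRG, PPARG, NR1H3, NR1I3, RORB, NR2E1, NR2E3, HNF4G and NR0B2, with 13 probe sets and signals of at most 116.8. They include the liver X receptor gene NR1H3, the xenobiotic sensor gene NR1I3 and NR0B2, a receptor that lacks a DNA-binding domain and represses others. Of the 270 signals of all 45 untested member probe sets 159 were 20 or less, and their median was 13.5. At such signals a transcript level was not measurable on these arrays, which does not show that it is absent.

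Genes around the receptors were examined in 9 lists of coregulators, receptor chaperones, enzymes and carriers of ligands, and target genes. They hold 177 genes, of which 100 were measured, each by its kept probe set with the highest mean. ESRRA and RARB are also members. The unpaired fit called 0 of the 100, as of all 7927 genes, and 15 of the 100 had an unadjusted p under 0.05, beside 11.9% of all genes. The paired fit called 4 (2 higher, 2 lower), beside 3.68% of all genes (1.73% higher, 1.96% lower), and the fit on arrays 2 and 3 called 40 (19 higher, 21 lower), beside 33.3% of all genes (12.8% higher, 20.5% lower). Both shares are near the background.

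Target genes of the glucocorticoid and mineralocorticoid receptors moved in both directions. Of 10 measured, the paired fit called MT2A, a metallothionein, higher and SGK1, a kinase that aldosterone and cortisol induce, lower. Over all genes it called 1.73% higher and 1.96% lower. MT2A read 4832.5, 2070.3 and 2014.3 against 9524.8, 6387.7 and 6035 (log2 difference 1.40, paired SE 0.20, limma adjusted p = 0.0238). SGK1 read 452.2, 2302.5 and 1946.8 against 166.3, 946.5 and 893.2 (log2 difference -1.28, paired SE 0.19, limma adjusted p = 0.0262). Both calls were lost with a common median (adjusted p = 0.0541 and 0.0946). In the fit on arrays 2 and 3, 5 genes rose and 3 fell, where 12.8% of all genes were called higher and 20.5% lower. ZBTB16, a glucocorticoid-induced zinc finger factor, then rose 8.77-fold (adjusted p = 1.89e-05) and TSC22D3, the anti-inflammatory GILZ gene, 1.56-fold (adjusted p = 0.00852), while CEBPD fell by 1.00 on the log2 scale (adjusted p = 0.000495). ZBTB16 read 469.4 on control 1 against 72.9 and 59.9 on controls 2 and 3, so its difference depends on that array. The list median was 0.29 in the paired fit, with -0.14 for all genes.

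Targets of the liver X receptors, which answer to oxysterols, did not move as a group. LPL, lipoprotein lipase, was the 1 of 9 called higher in the paired fit, beside 1.73% of all genes. It read 1080.6, 386.9 and 334 against 1956.8, 2334.2 and 2405.4 (log2 difference 2.10, limma adjusted p = 0.0453). The call was lost after quantile normalization (adjusted p = 0.0591). The cholesterol exporter ABCA1 differed by -0.10 and SREBF1, the lipogenic regulator, by -0.10 (paired adjusted p = 0.840 and 0.864). ABCG1, another sterol exporter, differed by -1.19 (paired adjusted p = 0.0805) and fell by 1.52 in the fit on arrays 2 and 3 (adjusted p = 0.00257). In that fit 3 of the 9 rose and 1 fell, beside 12.8% and 20.5% of all genes.

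Targets of PPARs and oestrogen-related receptors were mixed as well. ACAA2, a thiolase of mitochondrial fatty acid oxidation, was the 1 of 15 called in the paired fit and fell (log2 difference -1.02, adjusted p = 0.0494). Of all genes 1.96% were called lower there. The ACAA2 call was lost after quantile normalization (0.0553). PDK4, the kinase that shuts down pyruvate dehydrogenase, read 180, 344.4 and 358.2 against 150.5, 2611.2 and 2293.7. It rose 6.97-fold on arrays 2 and 3 alone (adjusted p = 5.65e-06), although in pair 1 it was lower after treatment (paired adjusted p = 0.158). In the same fit EHHADH, a peroxisomal oxidation enzyme, fell by 1.48 (adjusted p = 0.0113), and CPT1A, which admits fatty acids to mitochondria, differed by -0.12 (adjusted p = 0.597). There 3 of the 15 rose and 2 fell, beside 12.8% and 20.5% of all genes. With a common median 6 rose and 2 fell, and of all 13329 kept probe sets 2721 were then called higher and 903 lower.

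Coregulators lay mostly below control, but that side depended on the scaling. In the paired limma fit 0 of 32 were called, and 7 had an unadjusted p under 0.05, beside 22.4% of all genes. On arrays 2 and 3 alone, 2 rose and 11 fell, beside 12.8% and 20.5% of all genes. TBL1XR1, a subunit of corepressor complexes, fell by 0.99 (adjusted p = 0.00257), CREBBP, the CREB-binding acetyltransferase, by 0.75 (adjusted p = 0.00334), and NRIP1, a ligand-dependent corepressor, by 0.72 (adjusted p = 0.00505). The coactivator genes NCOA2 and NCOA1 fell by 0.59 and 0.75 (adjusted p = 0.0123 and 0.0125), and SIRT1, a deacetylase, rose by 0.95 (adjusted p = 0.00505). After quantile normalization 3 rose and 9 fell, and with a common median 4 rose and 1, TBL1XR1, fell. Over all kept probe sets the calls as deposited were 1614 higher and 2489 lower. They became 1739 and 1951 after quantile normalization and 2721 and 903 with a common median. The calls thus moved toward the higher side over all probe sets too.

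Enzymes that make or remove ligands had 2 higher and 2 lower of 11 in the fit on arrays 2 and 3, under all 3 scalings. As deposited, that fit called 12.8% of all genes higher and 20.5% lower. The counts of this and the following lists stand beside those shares and are no result about the lists. ALDH1A2, which makes retinoic acid, read 4465.9, 1087.8 and 1316.8 against 5662.1, 3908.2 and 4036.1 and rose 3.32-fold there (adjusted p = 3.93e-05, and 0.0794 in the paired fit with all arrays). SRD5A1, a steroid 5-alpha reductase, fell by 1.34 (adjusted p = 0.00250), and FABP3, a fatty acid carrier, fell by 2.64 (adjusted p = 0.00453). Of 12 chaperone genes 2 rose and 2 fell (3 and 0 with a common median), with HSP90AB1, which holds steroid receptors ready for ligand, higher by 0.48 (adjusted p = 0.00882, and 0.124 after quantile normalization). Among retinoid targets 1 of 4 fell (0 with a common median), and 1 of 4 xenobiotic and bile acid targets rose, the efflux pump gene ABCB1. Of 7 vitamin D, thyroid and oestrogen receptor targets 1 rose, the oestrogen-responsive gene GREB1, from 112.7, 2.2 and 10.7 to 465.6, 98.1 and 86.8 (adjusted p = 0.0143). Controls 2 and 3 were below the filter level there, so its fold is imprecise.

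**Figure D5:**
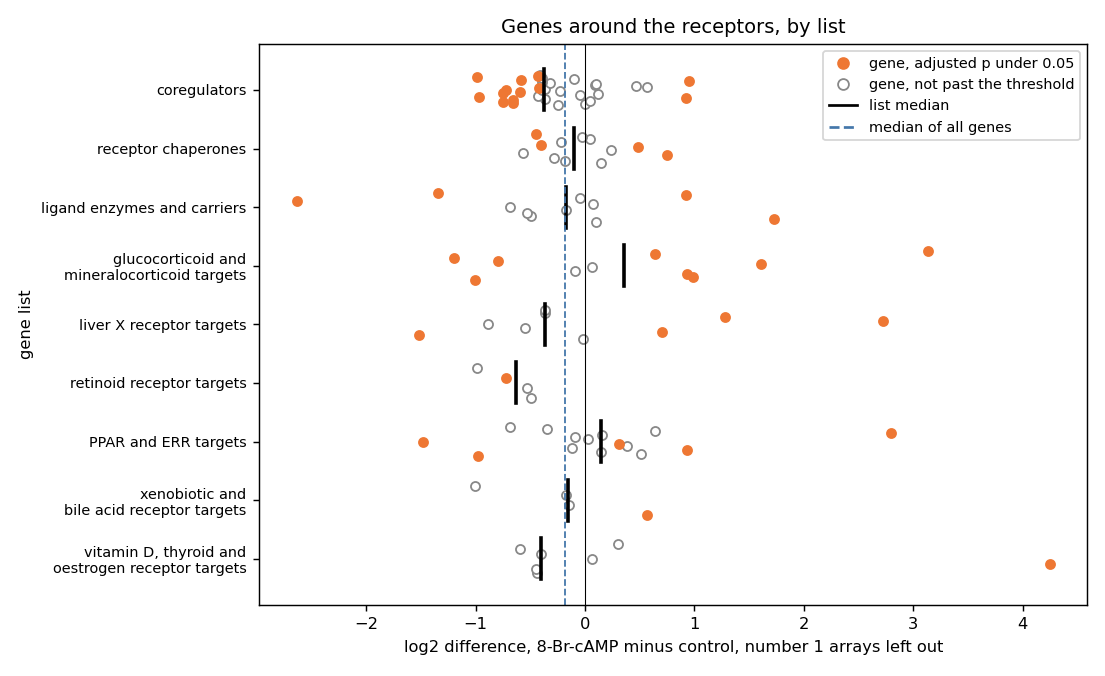
Log2 difference, 8-Br-cAMP minus control, on arrays 2 and 3 alone, for each measured gene of 9 lists around the receptors; filled points have a limma adjusted p under 0.05, black bars are list medians and the dashed line is the median of all genes, -0.18. Coregulators have 2 filled points above 0 and 11 below it, and the glucocorticoid and mineralocorticoid targets 5 above and 3 below. Of all genes 12.8% were called higher and 20.5% lower.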

How the data were processed

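The authors deposited linear intensities for each probe set, and the submitters' processing notes name GCOS 1.3. The design text names a larger array type than the platform annotation, which fits the 22277 probe sets of the table, 62 of them controls. The 2% trimmed mean of every column lay between 249.996 and 250.155, so the intensities were taken as scaled and only log2 transformed. Annotation gave 1 symbol for 19064 probe sets, several for 1043 and none for 2108. No detection calls were used.

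The fits used lmFit and eBayes with an intensity trend (limma 3.58.1, R 4.3.3), and the scripts were tested on simulated data. For the pairing check, deviations from the group mean were compared between arrays of 1 number. They correlated at 0.603, 0.378 and 0.538, all over 0.1, so the numbers, which come from the titles, were taken to pair the samples. Crossed pairs of arrays 2 and 3 were over 0.1 too. Control 2 correlated at 0.312 with 8-Br-cAMP 3, and control 3 at 0.547 with 8-Br-cAMP 2, above the 0.538 of its own pair. The check therefore cannot tell which treated array belongs with control 2 or control 3. For these arrays the pairing, and with it the paired calls, rests on the numbers in the titles. The number of arrays limits the precision. Members, lists and fits were chosen with earlier results of these data known. Named were all members and, from each list, at most 4 called genes per direction with the smallest adjusted p on arrays 2 and 3, at most 2 from the paired fit, and a fixed set of genes, of which FKBP5, PER1, NCOR1 and PPARGC1A were not analysed here. The NR6A1 promoter was picked with its value known. Alternatives covered scaling, filter, offset, variance model, block and arrays left out.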

Additional observations from a re-analysis of the deposited data

How the results depend on the processing

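The count of called receptor probe sets depended on the pairing and on the number 1 arrays. It was 0 without the block under each other scaling, filter, offset and variance choice and in the unmoderated test, and 3 with the replicate block. With the block it was 2 after quantile normalization, with a common median, without a filter and with the stricter filter, 3 with the pseudocount of 16, the floor and robust variances, and 0 without the intensity trend. It was 0 to 1 with 1 array left out and no block, and 1 to 10 with 1 pair left out and the block, 10 without pair 1. With both number 1 arrays left out and no block it was 9, and 8 and 7 with quantile normalization or a common median added, alternatives chosen after seeing the data. The 9 stand beside 30.8% of all 13329 kept probe sets, the 8 beside 1739 higher and 1951 lower, and the 7 beside 2721 and 903. With another choice under the block, or with 1 array or 1 pair left out, the share over all probe sets was not counted. The selection in the design text, at least 2-fold and an unadjusted p under 0.05, gave 3 by limma, beside 6.6% of all kept probe sets, and 1 by the unmoderated test.

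For the 100 genes of the lists the block gave 4 calls, and 2 with quantile normalization, 0 with a common median, 4 without a filter, 5 with the stricter filter (of 77), 6 with the pseudocount, 6 with the floor, 0 without the trend and 3 with robust variances. The range was 0 to 3 with 1 array left out, 2 without control 1 and 3 without 8-Br-cAMP 1, and 5 to 44 with 1 pair left out. With both number 1 arrays left out it was 40, or 37 and 34 with quantile normalization or a common median. The design text's selection gave 10 by limma and 5 by the unmoderated test. Beside the 4 and the 40 stand 3.68% and 33.3% of all genes. For the other counts of this paragraph the share of all genes was not counted, so they are no result about the lists.

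Signs turned for several member probe sets, none of them called in the paired fit or on arrays 2 and 3. After quantile normalization, with or without the block, the log2 difference was 0.026 for THRA 1316_at, 0.11 for ESRRA 1487_at, 0.13 for RXRA 202449_s_at, 0.017 for ESR1 205225_at and 0.17 for NR2C1 210530_s_at, and with a common median 0.22, 0.092, 0.022 and 0.18 for the last 4 and 0.022 for NR2C1 210531_at. With both number 1 arrays left out ESRRA gave 0.028, or 0.15 and 0.37 with quantile normalization or a common median added, where RXRA gave 0.17 and 0.18 and ESR1 0.076 and 0.12, NR2C1 210531_at gave 0.14, or 0.44 and 0.48, NR2C1 210530_s_at 0.17 and 0.24, NR3C1 211671_s_at 0.07 with a common median, and NR6A1 211402_x_at -0.34. With 1 array or pair left out the range was -0.12 to 0.060 for ESRRA, -0.43 to 0.19 for RXRA, -0.70 to 0.017 for ESR2 210780_at and -0.34 to 0.32 for NR6A1. Causes were not tested. Signals near or under the filter level limit RARG, PPARA, RARB and THRA.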

Other observations

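Among the member probe sets below the filter, which were not tested, 2 of 45 had groups that did not overlap, both lower after 8-Br-cAMP. Of all kept probe sets 12.5% were lower and 6.02% higher without overlap. The share among all probe sets below the filter was not counted, so the 2 are no result about the receptors. RARG 204188_s_at read 14, 20.4 and 63.2 in controls and 10.8, 9.6 and 5.5 after treatment, the same direction as the tested RARG probe set. NR2E3 208388_at, a probe set of a photoreceptor orphan receptor, read 48.8, 65 and 74.4 against 10, 46.9 and 44.4. NR1H3, the liver X receptor alpha gene, read 65.3, 41.6 and 28 against 59.3, 1.9 and 5.1, low in treated arrays 2 and 3 and not in treated array 1.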
